A study of Mus musculus with 10 samples.

Results

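Regions of open chromatin that differ between mouse embryonic stem cells and fibroblast cultures at day 3 of reprogramming were taken from ATAC-seq peak lists. ATAC-seq uses a transposase that cuts accessible DNA, and a peak is a stretch where cuts pile up above the local background. Peaks of the 2 ESC lists and the 2 DAY3 lists were merged wherever they overlapped, which gave 135857 regions, out of 208851 over the 10 lists of the series. A region was called gained if both ESC lists and neither DAY3 list had a peak there, and lost if both DAY3 lists and neither ESC list had one. These rules gave 33695 gained regions (24.8% of the merged regions) and 11622 lost regions (8.55%), 45317 in all. The ESC lists were longer, with 86585 and 88980 peaks against 45766 and 45497. When the top 45497 peaks of every list were used, 13894 regions were gained and 15565 lost, so the excess of gains over losses turned with the length of the lists. Without ESC replicate 1 there were 59973 gained regions, and without ESC replicate 2 there were 57046. A further 20661 regions had a peak in all 4 lists and are called shared below, and 69879 had another mixture of peaks.

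The ESC libraries have the genotype V6.5, an embryonic stem cell line for which the labels name no reprogramming cassette, and were grown in ESC medium with LIF on irradiated feeder cells. DAY3 cells descend from embryonic fibroblasts of a reprogrammable mouse, in which Oct4, Klf4, Sox2 and Myc lie on a polycistronic cassette in Col1a1 and are switched on through M2rtTA in Rosa26. They had been kept for 3 days in ESC medium with LIF, doxycycline at 1 µg/ml and ascorbic acid, and were profiled as a bulk population. LIF was at 1000 U/ml for both DAY3 and ESC, and no ascorbic acid is named for ESC. The remaining groups, used here to follow the regions, are the same fibroblasts without doxycycline (MEF) and cells sorted for the surface marker SSEA1 after 6 and 9 days with doxycycline and ascorbic acid (DAY6, DAY9). All groups have the C57BL/6 x 129 background. Genotype, doxycycline, ascorbic acid and cell type change together between DAY3 and ESC and cannot be told apart. The part of the feeder cells in the ESC peaks was not tested. In bulk cells, fewer cells with an open region and a less open region in each cell also cannot be told apart.

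Embryonic stem cells hold enhancers bound by Oct4, Sox2, Nanog, Esrrb and Klf factors open, together with the promoters of epithelial and, in part, germline genes. Fibroblasts hold open enhancers of AP-1, Tead and Runx factors, which support matrix production and adhesion. Early in reprogramming, the cassette factors act in cells that still carry much of the fibroblast programme, and the somatic enhancers, the epithelial genes and the pluripotency network are known to change at different times.

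Promoters that carry the contrast are shown first. The sequences are from RefSeq (GRCm38.p6), which has the coordinates of the build of the files, mm10. Each runs 5′ to 3′ on the strand of its gene over the 250 bases before the transcription start, and the capitals mark the motifs named. The first 4 lie in gained regions. Ddx4 (chr13:112652311-112652560, minus strand), Stk31 (chr6:49395289-49395538, plus strand) and Sycp3 (chr10:88459337-88459586, plus strand) are germline genes, and CACGTG, the E-box of Myc, Max and Mga, is in capitals. It starts 29 bases before the start of Ddx4, 55 before that of Stk31, and 64 and 43 before that of Sycp3. In Nanog (chr6:122707239-122707488, plus strand), a core pluripotency factor, the octamer motif ATGCAAA and the Sox motif CATTGT, both on the other strand, begin 75 and 67 bases before the start.
Ddx4: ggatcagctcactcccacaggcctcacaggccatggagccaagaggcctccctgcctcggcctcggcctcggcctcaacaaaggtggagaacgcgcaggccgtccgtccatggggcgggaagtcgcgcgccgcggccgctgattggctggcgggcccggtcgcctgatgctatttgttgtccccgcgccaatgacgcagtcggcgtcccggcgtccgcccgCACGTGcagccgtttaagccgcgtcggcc
Stk31: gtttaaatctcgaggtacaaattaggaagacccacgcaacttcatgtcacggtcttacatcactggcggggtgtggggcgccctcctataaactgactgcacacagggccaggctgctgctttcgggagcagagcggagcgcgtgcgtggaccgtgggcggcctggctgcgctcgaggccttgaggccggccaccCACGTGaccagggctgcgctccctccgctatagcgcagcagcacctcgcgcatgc
Sycp3: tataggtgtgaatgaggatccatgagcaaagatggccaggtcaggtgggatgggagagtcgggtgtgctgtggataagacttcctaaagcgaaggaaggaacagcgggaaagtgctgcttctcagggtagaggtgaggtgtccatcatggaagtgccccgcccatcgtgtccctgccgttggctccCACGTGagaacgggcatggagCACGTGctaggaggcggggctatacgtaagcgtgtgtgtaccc
Nanog: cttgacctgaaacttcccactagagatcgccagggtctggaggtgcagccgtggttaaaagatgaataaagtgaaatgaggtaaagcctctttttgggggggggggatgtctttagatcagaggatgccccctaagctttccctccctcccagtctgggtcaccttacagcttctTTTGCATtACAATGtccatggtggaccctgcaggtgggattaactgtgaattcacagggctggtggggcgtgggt

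The next 3 promoters lie in lost regions. Ankrd1 (chr19:36119845-36120094, minus strand) is a known target of Yap and Tead and holds the Tead motif GGAATG 210 and 123 bases before its start. Runx2 (chr17:44814628-44814877, minus strand) encodes a skeletal and fibroblast transcription factor and holds the Runx motif TGTGGTT on the other strand, 81 bases before its start. Eml1 (chr12:108370903-108371152, plus strand), a microtubule-binding protein gene, holds the AP-1 motif TGANTCA 205 bases before its start. A match is a string of letters and was not tested as a binding site.
Ankrd1: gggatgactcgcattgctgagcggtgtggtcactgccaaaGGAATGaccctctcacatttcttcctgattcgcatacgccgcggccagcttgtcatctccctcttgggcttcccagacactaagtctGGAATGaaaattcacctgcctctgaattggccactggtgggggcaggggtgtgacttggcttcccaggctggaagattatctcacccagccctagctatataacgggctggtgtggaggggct
Runx2: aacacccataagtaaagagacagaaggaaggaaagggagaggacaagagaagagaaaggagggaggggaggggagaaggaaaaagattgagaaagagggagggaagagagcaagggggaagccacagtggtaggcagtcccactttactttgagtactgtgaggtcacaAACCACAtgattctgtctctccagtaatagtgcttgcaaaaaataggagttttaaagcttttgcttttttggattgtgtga
Eml1: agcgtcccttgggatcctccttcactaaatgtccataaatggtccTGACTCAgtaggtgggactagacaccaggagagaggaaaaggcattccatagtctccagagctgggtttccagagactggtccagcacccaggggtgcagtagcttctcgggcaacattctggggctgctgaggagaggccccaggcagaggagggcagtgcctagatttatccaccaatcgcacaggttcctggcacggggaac

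The peaks over these promoters show the contrast in every library. The value given for a peak is the authors' fold, its height relative to the local background. Over the Ddx4 promoter the fold was 9.64 and 6.19 in ESC, and none of the other 8 lists had a peak. Stk31 likewise had ESC peaks alone, at 10.71 and 7.28, and Sycp3 at 8.64 and 3.95. Nanog had ESC peaks of 5.32 and 3.14 and DAY9 peaks of 2.25 and 2.42, with none in MEF, DAY3 or DAY6. The order ran the other way over the Runx2 promoter, with 10.65 and 3.43 in MEF, 6.49 and 4.94 at DAY3 and no later peak. The Ankrd1 promoter had 7.78 and 6.55 in MEF, 3.17 and 3.35 at DAY3 and 3.91 in DAY6 replicate 2 alone. Eml1 had 4.76 and 4.18 in MEF and 5.39 and 4.47 at DAY3. A peak of 3.82 in DAY6 replicate 1 lay in the same merged region but not over the Eml1 promoter. DAY9 and ESC had no peak over any of these 3 lost promoters. Another Eml1 start had a lost region (chr12:108495330-108496089) with 8.25 and 9.40 at DAY3, 7.69 and 6.75 at DAY6 and 4.68 and 3.92 at DAY9.

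MicroRNA genes of the stem cell state also lay beside gained regions. MicroRNAs are short RNAs that repress messages matched by their seed, bases 2 to 8, shown here in capitals (RefSeq). The first 5 come from the miR-302 and miR-290 clusters and share the seed AAGUGCU, which is known to promote stem cell cycling and the passage from mesenchymal to epithelial form. The next belongs to the miR-17 cluster, whose seed is shifted by 1 base. The last 4 are miR-200 family members, which repress Zeb1 and Zeb2 and fall into a pair of seeds that differ at 1 base.
miR-302b-3p: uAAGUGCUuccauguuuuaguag
miR-302d-3p: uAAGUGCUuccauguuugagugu
miR-291a-3p: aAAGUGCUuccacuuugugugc
miR-294-3p: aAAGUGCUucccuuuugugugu
miR-295-3p: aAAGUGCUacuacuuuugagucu
miR-17-5p: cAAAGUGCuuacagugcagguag
miR-200b-3p: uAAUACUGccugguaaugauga
miR-200c-3p: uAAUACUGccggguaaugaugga
miR-200a-3p: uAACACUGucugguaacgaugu
miR-141-3p: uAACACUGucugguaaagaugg

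A gained region lay within 10 kb of all 7 matched hairpins of the miR-290 cluster, all 5 of the miR-302 cluster, all 6 of the miR-17 cluster, all 6 of the miR-106a cluster and all 5 of the miR-200 family. No matched hairpin of these groups had a lost region within that distance. The hairpin of miR-291a was not matched to a position, so its own distance was not measured. Over all 1005 hairpins, 28.4% had a gained and 10.9% a lost region, and the hairpins of a cluster share their regions. Families known to oppose the stem cell state differed, with neither kind of region at the 11 let-7 hairpins but a gained and no lost region at all 3 miR-34 hairpins. Of the 4 miR-29 hairpins 2 had a gained and 0 a lost region, and the miR-205 hairpin had both. The region over the miR-302 cluster (chr3:127544567-127545384) had no MEF or DAY3 peak, 9.21 and 3.61 at DAY6, 6.38 and 7.29 at DAY9 and 8.40 and 10.18 in ESC. The region beside the miR-290 cluster (chr7:3217528-3217973) was weaker, at 2.91 and 4.21 at DAY6, 4.67 and 3.58 at DAY9 and 4.96 and 2.96 in ESC. Both were thus listed from DAY6 on.

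The 2 loci of the miR-200 family differed in their time. Near miR-200a, miR-200b and miR-429 (chr4:156059138-156060197) the fold was 6.39 and 7.65 at DAY6, 9.91 and 10.77 at DAY9 and 10.33 and 5.42 in ESC. Near miR-141 and miR-200c (chr6:124716794-124717497) ESC alone had peaks, of 2.73 and 3.39. The hairpins Mir199a-2 and Mir214, of microRNAs known from mesenchymal cells, lay near 1 gained and 2 lost regions. The lost region chr1:162225625-162226427 had 4.71 and 5.68 in MEF, 4.07 and 4.73 at DAY3, 4.44 and 4.73 at DAY6, 2.64 and 3.22 at DAY9 and none in ESC.

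Gained and lost regions both lay mostly away from gene starts. Of the gained regions 5.82% (1961) were within 1 kb of the start of a protein-coding gene, and of the lost regions 3.72% (432), against 54.4% of the shared and 12.7% of all merged regions. Taking equal numbers of peaks changed them to 5.84% and 6.85%, so which of the 2 sets held more starts turned, while both stayed under the shares of shared and of all merged regions in the lists as deposited. The median distance to the nearest start was 36.2 kb for gained and 38.5 kb for lost regions. Lost regions lay more often inside a gene and over 1 kb from a start, 54.0% against 38.9% of gained and 40.5% of all merged regions. Gained regions lay more often over 500 kb from any gene, 4.73% against 1.85%, with 0.513% for shared regions. Median width was 619 bp in the gained, 594 bp in the lost and 955 bp in the shared set, and the gained set covered 23.4 Mb against 7.39 Mb.

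**Figure D1:**
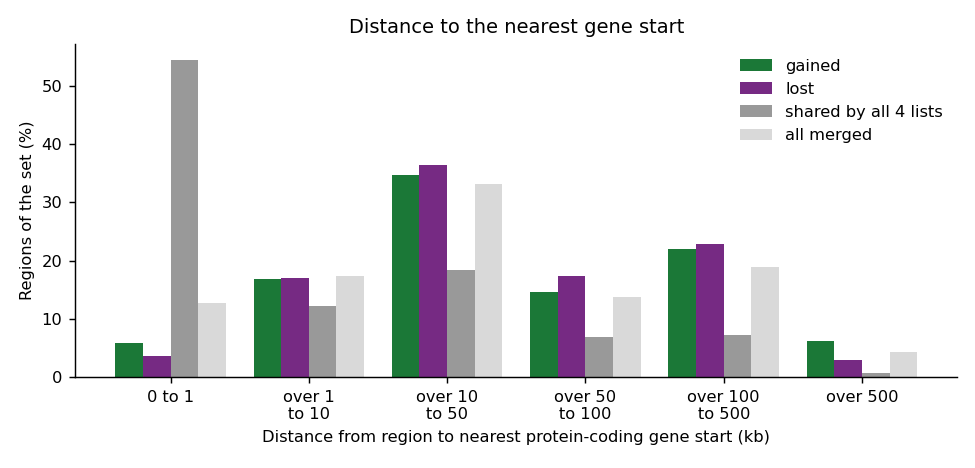
Share of regions of each set (vertical axis, %) by distance to the nearest protein-coding gene start (horizontal axis, kb), for gained, lost, shared and all merged regions. Gained and lost regions peak between 10 and 50 kb, with 34.6% and 36.3%, whereas 54.4% of shared regions lie within 1 kb.

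The regions were unevenly spread over the chromosomes. Gained regions made up 31.8% of the 3770 merged regions of the X chromosome and 34.1% of the 267 of the Y, against 20.1% on chromosome 11 and 20.2% on chromosome 19, the lowest. Lost regions made up 2.62% on the Y and 10.3% on chromosome 19, the lowest and the highest share. The sex of the cells behind the libraries was not analysed here.

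Each region was then assigned to its nearest protein-coding gene within 100 kb. Of 21887 genes, 10839 (49.5%) received a gained region and 5373 (24.5%) a lost region, and 3833 received both. Genes with a gained region within 1 kb of a start numbered 1889 (8.63%), those with a lost region there 451 (2.06%) and those with a shared region there 11859 (54.2%). Regions assigned to genes were 73.2% gained and 26.8% lost as listed, and 44.2% gained with equal numbers of peaks. The gene lists below are read against these shares, and no test was made over a list.

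**Figure D2:**
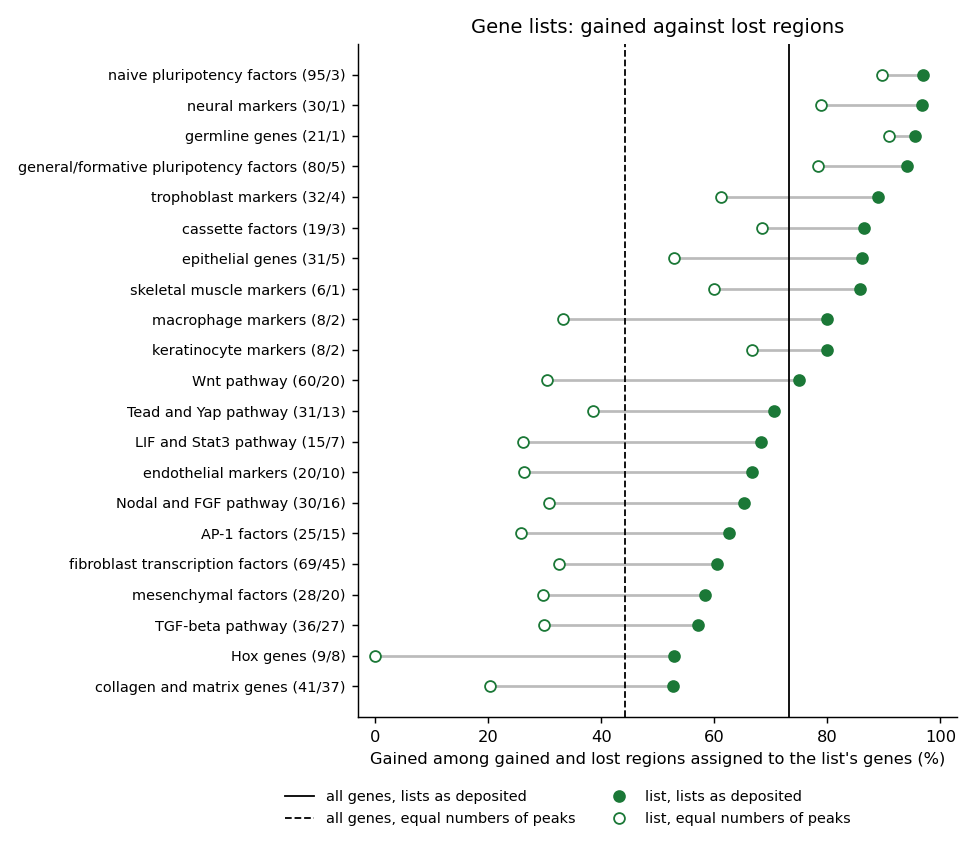
Share of gained regions among the gained and lost regions assigned to each gene list (horizontal axis, %), with the peak lists as deposited (filled) and with equal numbers of peaks (open), and the numbers of gained and lost regions in brackets. Naive pluripotency, neural and germline lists lie to the right of the lines for all genes (73.2% and 44.2%), and matrix, Hox and TGF-beta lists to the left.

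Naive pluripotency genes received gained regions throughout. All 15 genes of the list had at least 1, with 95 gained and 3 lost regions, and 43 gained and 5 lost with equal numbers of peaks. Esrrb, an orphan nuclear receptor of the ground state, had 15 gained and no lost regions. Zfp42 (Rex1, a zinc finger marker of naive cells) and Nr5a2, a nuclear receptor that can replace Oct4 in reprogramming, had 13 each, and Klf5 had 11. Klf5 and Tbx3 each also had 1 lost region.

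The regions of these genes opened at different times. The strongest at Zfp42 (chr8:43320554-43321374, 13.5 kb from the start) had 15.24 and 12.14 in ESC, 3.36 and 2.75 at DAY9, 4.21 in DAY6 replicate 2 and no other peak. Prdm14, a repressor of FGF signalling, had its strongest 27.8 kb from the start (chr1:13084630-13085609), with 8.53 and 8.45 at DAY6, 14.99 and 13.05 at DAY9 and 14.65 and 10.38 in ESC. The Prdm14 start itself had ESC peaks alone, of 2.70 and 2.96. So at Prdm14 the distal region had peaks at DAY6 and DAY9, and the start had none in those lists. In Esrrb, the region chr12:86470847-86471725 (49.2 kb from the start, inside the gene) had 4.92 and 5.71 at DAY6, 7.38 and 7.42 at DAY9 and 8.03 and 4.66 in ESC. Another Esrrb region, chr12:86395291-86395832, had 13.22 and 4.18 in ESC and 3.74 in MEF replicate 1, with none between. The lost region of Klf5 lay inside the gene (chr14:99304262-99304842), with 7.64 and 5.82 at DAY3, 4.81 in each DAY6 list, 3.68 and 4.83 at DAY9 and no MEF or ESC peak.

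At the starts of naive genes 8 had a gained region, and 3 of these were in no MEF, DAY6 or DAY9 list. Nr0b1 (Dax1), an orphan nuclear receptor, had 3.26 and 4.05 at DAY6, 3.11 and 3.53 at DAY9 and 5.56 and 3.63 in ESC. Zfp981 had 13.07 and 11.29 in ESC and 3.43 in DAY6 replicate 2. It lies among near-identical zinc finger genes, so its reads could belong to a copy. Klf5 had another start peak in all 10 lists, between 9.08 and 17, and Zfp42 one in 8 lists, DAY3 replicate 1 among them at 5.39, so their gained regions lay beside starts that already had a peak.

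General and formative pluripotency genes showed the same excess. Of 24, 22 had a gained and 2 a lost region, with 80 gained and 5 lost regions, and 40 against 11 with equal numbers of peaks. Otx2, a formative factor, and Fbxo15, an Oct4 target, had 8 each, Dppa2, Dppa4, Mycn, Jarid2 and Trim71 6 each. Pou5f1 (Oct4) had a gained region 0.8 kb upstream of its start (chr17:35503643-35505218), with 6.89 and 8.09 at DAY6, 9.02 and 8.80 at DAY9 and 7.69 and 4.91 in ESC. The Pou5f1 start itself (chr17:35505759-35506494) already had peaks, of 3.62 and 5.84 in MEF and 5.45 and 5.34 at DAY3. ESC had 2.59 there in replicate 1 alone. With equal numbers of peaks Pou5f1 had both a gained and a lost region within 1 kb of a start. The Sall4 start had 5.83 and 6.93 at DAY6, 5.46 and 5.59 at DAY9 and 5.79 and 3.54 in ESC, and the Tdgf1 start, a Nodal coreceptor, 6.23 and 4.72, 9.46 and 8.53, and 4.90 and 5.18. Dppa2 and Dppa4, paired chromatin factors that act on early embryonic genes, were in ESC alone, at 6.10 and 5.44 and at 3.22 and 3.39. The gained regions at pluripotency starts thus included some listed from DAY6 and some in ESC alone.

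Germline genes gained regions at the starts themselves. Their promoters are known to be held shut by DNA methylation in somatic cells and, in part, by Mga and Max with a variant Polycomb complex. Of 18 genes, 15 had an assigned gained region, and 1, Hsf2bp, also had a lost one. A gained region lay at the start of 11, where 8.63% of all genes had one: Asz1, Ddx4, Hormad1, Mael, Mov10l1, Slc25a31, Stk31, Syce1, Sycp1, Sycp3 and Taf7l. In 10 of the 11 no MEF, DAY6 or DAY9 list had a peak in the region, and the exception, Taf7l, had 3.36 in DAY9 replicate 1. Over all genes with a gained start, 24.5% were without a peak in all those lists. The 2 ESC folds were 8.92 and 6.5 at Mael, a piRNA pathway gene, 6.47 and 3.56 at Slc25a31, 4.91 and 6.97 at Syce1 and 4.02 and 4.80 at Sycp1, both of the synaptonemal complex. The start of Dazl, a germ cell translation regulator, counted as shared, since every list had a peak within 1 kb, between 9.74 and 19.58. Over the 300 bases around that start, however, the ESC lists alone had a peak. Piwil2, Tdrd1, Tex101 and Rhox5 had no start peak in any list. With equal numbers of peaks 5 of the 11 starts remained gained, those of Ddx4, Mael, Stk31, Sycp3 and Taf7l.

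Epithelial genes gained start regions that DAY6 cells already had. Of 18 genes, 11 had a gained and 3 a lost region. The list had 31 gained and 5 lost regions, and 9 against 8 with equal numbers of peaks. A gained region lay at the start of 10, and 9 of the 10 had a peak there in both DAY6 lists and 9 in both DAY9 lists, against 32.5% and 54.9% of all genes with a gained start. The Cdh1 start (E-cadherin) had no MEF or DAY3 peak, 6.98 and 7.90 at DAY6, 11.63 and 10.65 at DAY9 and 8.09 and 6.53 in ESC. Cldn7, a tight junction gene, had 3.82 and 5.56, 12.59 and 13.43, and 7.31 and 3.25 in the same order. Grhl2, a regulator of both, had 5.12 and 5.42, 7.98 and 9.29, and 6.53 and 3.24. In these 3 genes the DAY9 folds were above both ESC folds. Epcam had 3.59 and 4.92, 7.15 and 7.60, and 5.74 and 7.90, and another peak within 1 kb of its start in MEF replicate 1 (3.62) and DAY3 replicate 1 (3.65). The exceptions were Krt19, with a peak in 1 DAY6 list, and Krt18, with a peak in 1 DAY9 list. Equal numbers of peaks kept Cdh1, Epcam, Ocln and St14.

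Markers of other lineages also received gained regions. Of 10 neural markers, 9 had a gained region and 1 a lost one, with 30 gained and 1 lost region, and 15 against 4 with equal numbers of peaks. The Sox1 start, a neural plate factor, had 4.97 and 6.15 at DAY6, 7.06 and 6.20 at DAY9 and 5.83 and 5.91 in ESC. Neurod1 had 4.00 and 5.33, 6.17 and 6.32, and 7.85 and 7.17, and Olig2 3.70 and 3.51, 4.95 and 3.92, and 8.09 and 4.90. Pax6 had ESC peaks alone, of 2.78 and 3.18. Of 10 trophoblast markers 9 had a gained and 4 a lost region, with 32 gained and 4 lost regions, and 11 against 7 with equal numbers. A gained region was assigned to 4 of 7 keratinocyte, 4 of 7 macrophage, 6 of 7 endothelial and 5 of 6 muscle markers, and a lost region to 1, 2, 6 and 1 of them. With equal numbers of peaks the endothelial list turned from 20 gained and 10 lost regions to 5 and 14. The macrophage list turned from 8 and 2 to 1 and 2. Endothelial Erg had a lost start region with 7.57 and 10.06 at DAY3, 12.30 and 11.83 at DAY6, 13.01 and 12.74 at DAY9 and none in MEF or ESC. Erg also had a start peak shared by all 4 lists, with 6.91 and 5.42 as its highest start folds in ESC.

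Fibroblast genes received both kinds of region, with more gained than lost ones in the lists as deposited and the reverse with equal numbers of peaks. The 23 fibroblast transcription factors had 69 gained and 45 lost regions, and 27 against 56 with equal numbers. The 12 mesenchymal factors had 28 and 20 (11 and 26), the 24 collagen and matrix genes 41 and 37 (13 and 51), and the 14 AP-1 factors 25 and 15 (9 and 26). In either setting their gained share lay under that of all genes. The same held for other lists, among them Tead and Yap, TGF-beta, LIF and Stat3, and Nodal and FGF. Among all 14 Tead and Yap genes 12 had a gained and 8 a lost region, with 31 gained and 13 lost regions (15 and 24).

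Runx1, Runx2 and Ebf1 had the most lost regions of the fibroblast transcription factor list, with 9, 7 and 9. Runx1 and Runx2 are Runt factors that hold fibroblast enhancers open with AP-1, and Ebf1 marks mesenchymal stroma. Runx1 also had 3 gained, Runx2 3 and Ebf1 9. A lost region inside Runx1 (chr16:92679715-92680684) had 7.24 and 8.33 at DAY3, 7 and 7.84 at DAY6, 3.84 and 4.90 at DAY9 and no MEF peak. One inside Runx2 (chr17:44709748-44710337) had 12.21 and 6.65 in MEF, 5.87 and 7.01 at DAY3, 6.96 and 7.51 at DAY6 and no later peak. The lost regions of these factors therefore included regions with MEF peaks and regions with no listed MEF peak.

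Matrix and adhesion genes repeated that mixture. Cdh11, the mesenchymal cadherin, had 5 lost and no gained regions, and its strongest (chr8:102691215-102691852) had 4.03 in MEF replicate 1, 10.47 and 10.44 at DAY3, 6.96 and 9.00 at DAY6 and 4.56 and 3.94 at DAY9. Fbn1 (fibrillin) and Col4a1 had 6 lost and 1 gained region each. Inside Fbn1, chr2:125438215-125438825 had no MEF peak, 12.70 and 10.86 at DAY3, 14.42 and 14.10 at DAY6 and 6.24 and 8.84 at DAY9. Twist2, a mesenchymal repressor, had 1 lost region (chr1:91816676-91817196), with 11.39 and 10.34 in MEF, 5.71 and 4.15 at DAY3 and no other peak. At Prrx1, a limb and fibroblast factor, 4 regions were gained and 4 lost, among them 1 of each at the start. The lost one (chr1:163313436-163313918) had 4.62 and 2.84 in MEF, 2.71 and 2.46 at DAY3, 2.51 and 2.64 at DAY6 and none after. The gained one had 3.16 in DAY6 replicate 2, 3.11 and 2.35 at DAY9 and 4.65 and 3.85 in ESC.

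Signalling pathways were mixed. All 15 Wnt genes had a gained and 8 a lost region, led by Lef1 (11 gained, 2 lost) and Tcf7l1 (8 and 3), the effectors, while Tcf7l2 had 6 gained and 8 lost. Their gained share, 75%, was near the 73.2% of all genes, and with equal numbers of peaks it was 30.4%, under the 44.2% of all genes. The TGF-beta list had 12 of 15 genes with a gained and 9 with a lost region. Its 36 gained and 27 lost regions became 14 and 33 with equal numbers of peaks. Ltbp1, which stores latent TGF-beta in the matrix, had 12 gained and 8 lost, and its lost start region (chr17:75178156-75178946) had 11.02 and 6.64 in MEF, 8.50 and 8.24 at DAY3, 8.44 and 8.11 at DAY6, 3.36 and 3.11 at DAY9 and none in ESC. Another Ltbp1 start had a region shared by all 4 lists, and the highest start folds in ESC were 6.68 and 5.75. Tgfbi, a TGF-beta target, had 3 lost and no gained regions. Of the LIF and Stat3 genes 6 of 9 had a gained and 4 a lost region. Their 15 gained and 7 lost regions became 6 and 17 with equal numbers of peaks. Lifr, the LIF receptor, had 1 lost region with 6.95 and 8.92 at DAY3, 11.63 and 11.14 at DAY6 and 14.70 and 13.97 at DAY9 (chr15:7056570-7057196). A gained Lifr region (chr15:7081742-7082395) had 3.22 in DAY9 replicate 2 and 9.47 and 10.40 in ESC. In the Nodal and FGF list, 9 of 14 genes had a gained and 8 a lost region, led by the feedback inhibitor Spry2 with 8 gained and 1 lost. The 30 gained and 16 lost regions of that list became 8 and 18 with equal numbers of peaks.

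Hox genes had 9 gained and 8 lost regions over 24 genes, and 0 against 11 with equal numbers of peaks. Gained regions lay at the starts of Hoxa10 and Hoxd8, and 16 of the 24 genes, Hoxa3 among them, had a shared region at a start. Lost regions lay at the starts of Hoxa3, Hoxa9, Hoxa11 and Hoxc8. Their DAY3 folds were between 2.45 and 4.08, and the Hoxc8 region had no MEF peak, 4.52 and 3.61 at DAY6 and 4.79 and 5.20 at DAY9.

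The genes of the cassette need a separate look, since transgene copies add reads inside their sequence. A lost region inside Sox2 (chr3:34650420-34651384) had 3.15 and 5.09 in MEF, 5.13 and 5.39 at DAY3, 3.02 and 5.07 at DAY6, 4.61 and 4.59 at DAY9 and none in ESC. All 8 libraries with the cassette had this peak and both libraries without it did not, so cassette and endogenous gene cannot be told apart there. Another lost region of Sox2 lay 90.4 kb away (chr3:34558839-34559566), with 8.96 and 7.73 at DAY3, 7.86 and 8.04 at DAY6 and 6.40 and 6.98 at DAY9. Its gained regions included chr3:34745102-34745742, at 95.1 kb, with 3.59 and 6.01 at DAY6, 6.36 and 4.78 at DAY9 and 15.97 and 9.13 in ESC. Myc had 9 gained regions, the strongest 22.1 kb off (chr15:62012486-62013137) with 7.84 and 6.79 in ESC alone. Klf4 had 3, led by chr4:55463849-55464789 at 11.03 and 10.92 in ESC, with 4.32 and 4.66 at DAY9.

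The strongest regions of each set were mostly far from known pluripotency or fibroblast genes. The 10 strongest gained regions lay 0 to 716.3 kb from a start. The first was inside Smco2 (chr6:146854983-146855626), at 25.40 and 20.80 in ESC, 11.05 and 10.63 at DAY9, 5.84 and 4.21 at DAY6 and 3.62 in MEF replicate 1. One near Grin2b, a glutamate receptor gene (chr6:135706760-135707657), had 22.59 and 18.76 in ESC and 4.37 and 3.64 at DAY9. Those at Zfp972, Gm14410, Gm14295, Gm31714 and Gm46425 sit in clusters of near-identical genes on chromosomes 2 and 13, where reads could be split between copies. The 10 strongest lost regions lay 7.5 to 362.8 kb from a start. Near Thsd7a (chr6:12809413-12810020) DAY3 had 13.90 and 14.19, DAY6 17.55 and 19.14, DAY9 17.76 and 16.96 and MEF none. Near Adamts1, a matrix protease gene (chr16:85755933-85756645), MEF had 15.01 and 4.51, DAY3 13.57 and 14.03, DAY6 17.19 and 18 and DAY9 12.84 and 15.25.

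At gene starts the strongest gained regions included those at Mageb16 (chrX:79671080-79671913), a germline antigen gene, with 20.34 and 16.79 in ESC alone, and at Ttc29 and Capsl. Capsl had 9.21 and 10.82 at DAY6, 12.37 and 13.85 at DAY9 and 18.25 and 12.81 in ESC. Ttc29 had 9.64 and 13.01 at DAY6, 12.28 and 12.25 at DAY9 and 19.59 and 12.74 in ESC. The strongest lost ones included the secreted ribonuclease Rnase1 (10.08 and 9.5 at DAY3, 11.44 and 11.2 at DAY9, none in MEF) and the matrix proteoglycan Dcn (6.29 in MEF replicate 1, 8.72 and 8.45 at DAY3, 11.79 and 12.25 at DAY6, 16.81 and 15.12 at DAY9). These 5 genes, and Eml1 above, were chosen after their values were seen.

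Some gained regions lay in chains, joined at the stitching distance that is the default for calling super-enhancers. Chains of 3 or more numbered 1501 and held 5352 gained regions (15.9%), and for lost regions 257 chains held 847 (7.29%). Such counts grow with the number of regions, so the larger gained set and the lost set cannot be compared by them. The longest gained chains had 10 regions each, on the X chromosome (chrX:50560390-50605938, 133.9 kb from Olfr1324) and on chromosome 6 (chr6:67105271-67153431, nearest Gadd45a and Serbp1 at 67.9 kb). None of their regions had a DAY3 peak by rule, and 4 and 4 of the 10 on chromosome 6 had a peak in the DAY9 lists. Esrrb carried 9 regions over 40.6 kb (chr12:86464303-86504909), of which 5 and 2 had a peak at DAY6 and 6 and 5 at DAY9. Auts2, a neural developmental gene, carried 9 over 41.8 kb. Sfi1 carried 8, in a multicopy stretch where read placement is uncertain. The largest lost chains had 7 regions in Clic4, 6 each in Nfatc2, Lima1 and at Aldh3a1 and Aldh3a2, and 5 in Ccdc34. The 7 in Clic4, an intracellular chloride channel gene, had a peak in 2 and 1 cases in MEF, 3 and 3 at DAY6 and 1 and 3 at DAY9.

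By number of regions per gene, long genes led. Etl4 had 32 gained and 9 lost regions over 900.3 kb, Auts2 31 and 6 over 1105.9 kb, Pde4d 30 and 14 over 1301.8 kb. Plcb4 was shorter at 356.0 kb, with 28 gained and 2 lost. The highest count of lost regions was in Nav2, with 15 lost and 11 gained, followed by 14 each in Aopep, Cdh13, Lpp, Magi2, Pde4d, Slit3 and Zbtb20. Of these Aopep had the fewest gained regions, 2 over 361.2 kb. Pde4d, a phosphodiesterase gene, was thus among the 10 highest of both kinds.

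The libraries that the rule did not use place the 2 sets in time. Of the gained regions, 12.3% and 7.0% had a peak in the MEF lists, 25.3% and 21.6% at DAY6 and 39.0% and 39.3% at DAY9. The group values were 9.66 ± 3.75% (SD, n = 2) in MEF, 23.5 ± 2.58% (SD, n = 2) at DAY6 and 39.1% at DAY9, whose 2 lists were averaged as 1 sample (see the depth values below). The groups did not overlap. DAY9 was 29.5 percentage points above MEF. For an ordered trend, the Jonckheere-Terpstra statistic, two-sided and with exact permutation of the samples, gave p = 0.0667. This is the smallest p the 30 arrangements allow, so the test could not pass the usual threshold. With the DAY9 libraries counted separately the exact p was 0.0222. With equal numbers of peaks the order of the groups was the same, with 4.5% and 3.17% in MEF, 20.3% and 19.7% at DAY6 and 28.2% and 28.1% at DAY9. In the lists as deposited, all merged regions had 28.2% and 23.1% in MEF, 39.2% and 35.9% at DAY6 and 44.5% and 44.6% at DAY9. That rise had the same order, so the order is not particular to gained regions, whose share was lower in every list.

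Lost regions followed another course. A peak was listed for 34.4% and 29.7% in MEF, 69.0% and 62.2% at DAY6 and 57.7% and 57.6% at DAY9. DAY6 was highest, above DAY9 by 7.94 points and above MEF by 33.6 points. The same exact permutation test detected no ordered trend, with p = 0.467. DAY6 and DAY9 were sorted for SSEA1 and DAY3 was not, and sorting and time cannot be told apart.

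**Figure D3:**
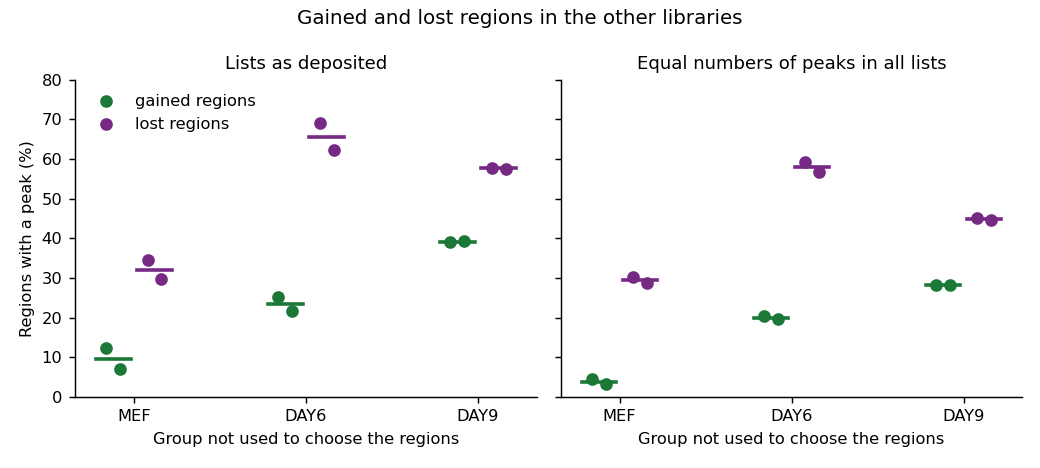
Share of gained and lost regions with a peak (vertical axis, %) in the MEF, DAY6 and DAY9 libraries (horizontal axis), with the lists as deposited and with equal numbers of peaks; each point is 1 library and each line the mean of a pair. Gained regions run from 9.66% in MEF to 39.1% at DAY9, and lost regions are highest at DAY6 in both panels.

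Most lost regions had no MEF peak, which was not particular to them. Neither MEF list had a peak in 61.6% of the lost regions, both MEF lists had one in 25.7%, and 31.1% had no MEF peak but peaks in both DAY6 and both DAY9 lists. By list, 34.4% and 29.7% of the lost regions had a MEF peak, against 28.2% and 23.1% of all merged regions. DAY3 alone held 8.98% of the lost regions. Of the gained regions 49.0% (16521) had no peak in MEF, DAY6 or DAY9, 33.2% had one in both DAY9 lists and 15.7% in both DAY6 lists. A smaller part, 4.94%, had a peak in both MEF lists. Foxf1, a mesodermal factor, had such a start region, with 6.09 and 2.63 in MEF, none at DAY3, 5.39 and 5.44 at DAY6, 3.92 and 4.67 at DAY9 and 4.83 and 4.85 in ESC. Gained regions with both DAY9 peaks were within 1 kb of a start in 9.25% of cases, and those with no DAY6 or DAY9 peak in 3.26%. Lost regions with both MEF peaks were there in 5.59% and those with no MEF peak in 2.54%.

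Promoters of the 2 sets differed in sequence. Over the 300 bases from 250 before to 50 after a start, gained promoters (n = 1045) had a median of 12 CpG, lost ones (n = 170) 6.5, shared ones (n = 10944) 23, those with no region in the 4 lists (n = 7592) 3 and all 21263 together 13. The AP-1 motif TGANTCA, on either strand, was in 21.2% of lost and 5.93% of gained promoters, against 6.99% of all. GGCGGGA, the E2F motif, was in 15.6% of gained, 10.0% of lost and 14.9% of all promoters. The E-box CACGTG was in 7.75% of gained and 7.84% of all promoters. Of the 20 promoters of 16 germline genes on the list, 13 held it, their median CpG count was 20.5 and 12 lay in a gained region. The Runx motif TGTGGTT was in 6.47% of lost, 3.73% of gained and 4.71% of all promoters, and the Tead motif GGAATG in 17.1%, 14.1% and 13.6%. Promoters with no region in the 4 lists held the Runx motif in 7.44%, the Tead motif in 17.3% and the AP-1 motif in 11.3%, so for Runx and Tead the lost share did not exceed theirs. The octamer ATGCAAA was in 5.55% of gained, 4.12% of lost and 4.23% of all. Promoters with no region in the 4 lists held the octamer in 5.44%, close to the gained share. The Sox motif CATTGT was in a lower share of gained than of lost promoters, 7.75% against 12.9%, and in 18.9% of those with no region. These counts describe letters, some promoters belong to the same gene, and no test was made.

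**Figure D4:**
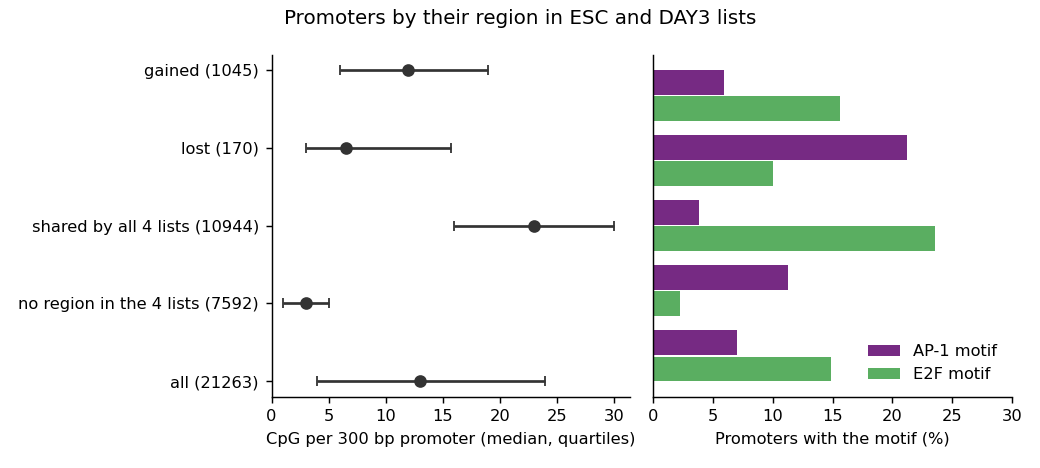
CpG count of 300-base promoters (left, median with quartiles) and share of promoters with the AP-1 and E2F motifs (right, %), by the kind of region over them in the ESC and DAY3 lists. Lost promoters have a median of 6.5 CpG against 12 in gained ones, and the AP-1 motif is in 21.2% of lost promoters.

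Some facts of the lists bear on all these values. The lists of the other groups held 74444 and 64295 (MEF), 65145 and 58969 (DAY6) and 77787 and 78308 (DAY9) peaks. Read totals were not used here, and the background pileup that fold and p-value imply gives relative depth, 5.30 and 5.27 at DAY3, 3.48 and 5.46 in ESC and 2.33 to 8.32 elsewhere. The difference between the lists of a pair, relative to counting noise, was 1.33 at DAY3 and 1.42 at DAY9, near the 1 that chance alone gives, against 3.63 to 10.5 in the other pairs. DAY3 and DAY9 were each counted as 1 sample, and with 1 sample against 2 no test of the gained and lost counts was made. Nothing in the labels says that the libraries of a pair came from separate cultures. Of 9 pluripotency markers, 9 had a start peak in both ESC lists and 4 in both DAY3 lists, and Nanog, Dppa5a and Tdgf1 had none at DAY3. Of 8 fibroblast markers 3 had one in both lists of DAY3 and also 3 in ESC, against 7 in MEF, and Col3a1, Pdgfra and Postn had none in either. Of the markers of other cell types, both ESC lists had a start peak at 2 of 5 for macrophages, 3 of 5 for endothelium and 0 of 3 for keratinocytes, and both DAY3 lists likewise at 2, 3 and 0. For the other types the numbers were 4 of 4 in ESC and 2 at DAY3 for neural cells, 4 of 4 and 1 for trophoblast, 2 of 4 and 0 for skeletal muscle and 5 of 6 and 2 for epithelium. Their part in the gained regions was not tested.

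Membership ended at the authors' lowest listed −log10 p, 5.0. Of the gained regions 4986 had a −log10 p under 6 in the weaker of their 2 lists, and of the lost ones 1397. Just outside, 4763 regions had both ESC peaks and 1 DAY3 peak, with a median −log10 p of 6.72 in that list, and 3431 had both DAY3 peaks and 1 ESC peak, with 8.7.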

How the data were processed

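ATAC-seq had been made on 10 mouse libraries, 2 each for MEF, DAY3, DAY6, DAY9 and ESC, from 50000 cells each. Per the submitters' processing notes, Bowtie2 2.3.2, deepTools 2.3.6 and MACS2 2.1.1 were used with build mm10. Their settings, filters and any offset of reads for the transposase are not given in the sources used here, and offsets of a few bases are small beside these peak widths. The authors deposited 1 peak list for each library, not pooled. In each list the authors give a fold over the local background (a ratio of pileups), the −log10 p and −log10 q of the peak, and a score that is the −log10 p times 10. Summits were not used here. Every listed peak has a −log10 p of at least 5.0, so a missing peak means that none passed that limit, not that the site was closed.

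Peaks that overlapped by at least 1 bp were merged with Python 3.11.15, numpy 2.4.6, pandas 2.3.3 and scipy 1.17.1. A library had a peak in a region if any of its peaks overlapped it, and its fold there is the highest of them. Gene positions came from the RefSeq table of GRCm38.p6. It gave start points for 17492 of 21887 protein-coding genes (79.9%), and both gene ends were used for the others. Distances are from the edge of a region. A region was assigned to 1 gene, whereas starts were counted for every gene within 1 kb. The files hold no reads, so depth was taken from the background pileup that fold and −log10 p imply. The calling of gained, lost and shared regions was tested on simulated peak lists, and the trend test on small made-up sets of values. The recovery of the pileup was not tested on simulated data. Same-numbered ESC and DAY3 libraries did not deviate together (r = -0.001 over 135857 regions), so numbers were not used as pairs. Pairs of lists whose difference was under 2 times counting noise were counted as 1 sample.

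The genes named are the cassette genes, members of 21 lists (288 genes, 1 listed name unmatched), the 10 genes with most gained and most lost regions, the 10 strongest regions of each set by the lower of their ranks by fold, and the 5 largest chains of each set. Of 67 microRNA genes listed, 62 were matched. The members and lists were chosen with earlier results of these data known.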

Additional observations from a re-analysis of the deposited data

How the results depend on the processing

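A count was held to have moved when it changed by over 1.5 times, and a share or distance when it changed by more than the SD between the same-numbered pairs, which is a narrow limit for shares. On that basis 11 values moved and 29 did not without 1 library, and under the other settings 20 moved, 25 did not and 1 passed its test's threshold. No difference between libraries changed sign, but the order of gained and lost counts and of their start shares turned at equal numbers of peaks. Leaving out 1 library gave 36108 to 59973 gained and 13314 to 17284 lost regions, start shares of 5.06 to 6.56% and 3.87 to 4.98%, and a median distance from gained regions to the nearest gene of 1.62 to 5.07 kb (4.49 kb with all libraries). Equal numbers of peaks left 13894 gained regions, of which 13881 overlap those reported, the lost start share was 6.85% and the gained median distance 8.18 kb. The top 50% of each list gave 17028 gained and 5611 lost regions, with start shares of 9.6% and 6.18%. Requiring that peaks cover 50% of a region gave start shares of 7.15% and 4.67%, merging peaks up to 150 bp apart 5.69% and 3.37%, all annotated genes 11.3% and 7.74% with a gained median distance of 0 kb, and a window of 2.5 kb 8.86% and 7.37%. The gained trend of 29.5 points had an exact permutation p of 0.0222 with each library counted separately, and between 0.0556 and 0.167 under the other settings. Depth limits what a missing peak can mean, and read totals were not used here. DAY3 had the shortest lists, although its background pileup, 5.30 and 5.27, was not under that of both ESC lists, 3.48 and 5.46. The part of depth in the length of the lists was not tested. The shares of motifs in regions, at 2 window choices, were not run, since they need a genome sequence.

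With the replicate block, as the mean of the 2 same-numbered pairs of 1 ESC and 1 DAY3 list, 61724 regions were gained and 19686 lost, with start shares of 5.63% and 4.99%. Each pair needs 1 list on either side, so fewer conditions must be met. The block gave an exact permutation p of 0.0556 for the gained and 0.611 for the lost trend, and neither trend passed the usual threshold. By the limits above, both counts and both start shares moved with the block, and the median distances did not.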
